A study of Solanum lycopersicum with 3 samples.

Results

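Levels of 8 genes of the small RNA machinery were followed in leaf primordia of the tomato (Solanum lycopersicum) mutant slmp. Of these, 4 belong to the trans-acting siRNA (tasiRNA) route whose loss gives tomato its wiry leaf mutants, namely AGO7 (Solyc01g010970), RDR6 (Solyc04g014870), SGS3 (Solyc04g025300) and DCL4 (Solyc07g005030). The other 4 are general machinery: AGO1A (Solyc06g072300), AGO1B (Solyc03g098280), DCL1 (Solyc10g005130) and DCL3 (Solyc08g067210). The genes were chosen by locus identifier, and all 8 were among the 21717 loci of the deposited table.

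The study holds 1 group of 3 libraries, each a pool of 15 primordia. These were taken from leaf 5 once it had reached P5, a stage counted in plastochrons (the time between successive leaves). The plants carried the slmp mutation, in SlMP, the tomato counterpart of the auxin response factor MONOPTEROS; the labels also name the plants slmp-1. Days had 18 h of light and nights lasted 6 h, and plants were sprayed with water, labelled as the mock treatment, 1 h before collection. No wild type is analysed here, so no value below says whether the mutation altered a gene, and the labels do not say whether the pools came from separate sets of plants. The level of SlMP is not analysed here.

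In the tasiRNA route, AGO7 loaded with the microRNA miR390 cleaves the TAS3 transcript, SGS3 stabilises the cleaved RNA, RDR6 copies it into double strands, and DCL4 dices these into phased tasiRNAs. Some of these, the tasiARFs, direct cleavage of the transcripts of auxin response factors of the ARF2, ARF3 and ARF4 type, which limits abaxial (lower side) identity in the leaf. Most of this was worked out in Arabidopsis thaliana. AGO1 proteins carry most microRNAs, DCL1 cuts microRNA precursors, and DCL3 makes the longer siRNAs that guide DNA methylation.

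Values are scaled read counts, in which each library's counts were divided by 1 factor. The libraries read the 3′ ends of polyadenylated RNA, giving about 1 fragment per transcript whatever its length. Genes are therefore compared here without division by length. Of the scaled total, 21.2% to 22.7% fell on no locus and 21.4% to 25.6% was of low alignment quality. How much of each gene's signal was lost in these ways was not tested, which limits every comparison between genes below. The loci of each library summed to between 2499843 and 2746410 steps, a step being the smallest difference between values, taken here as 1 read. Of 6 loci recorded as leaf primordium markers, 5 were detected, that is at 10 or more in each library, and the summed level of all 6 was between 6732 and 10917. The exception was the locus recorded for the KNOX gene TKN2, with values between 4.15 and 8.62. Most of the summed level came from the loci recorded for the Rubisco small subunit, at means of 5637 and 2527. The other detected loci of the 6 had means between 71.8 and 382.4, so the sum says little about them. Of 5 loci recorded as markers of floral organs, ripening fruit or the meristem's stem cell centre, 1 was in the table, a ripening locus at 2.84, 2.08 and 0 in replicates 1, 2 and 3.

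All 8 genes were expressed in every library. Each reached 10 in all 3 libraries, as did 68.7% of all loci. The median of the 8 means was 175.2, against 33.3 over all loci, and 7 of the 8 lay above that table median. The exception was AGO7. The 4 tasiRNA genes had a median of 175.2 and the 4 general genes 291.5. These are pools of whole primordia, in which fewer cells expressing a gene and less RNA per cell cannot be told apart.

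AGO7, the Argonaute that starts the tasiRNA route, was the lowest of the 8. Its scaled value was 11.4, 13.5 and 10.8 in replicates 1, 2 and 3, a mean of 11.9 ± 1.43 (SD, n = 3). All 3 libraries sat just above the detection minimum, and the mean lay at percentile 27.2 of all loci. The counts behind these values were 12, 13 and 10 steps. Exact Poisson 95% intervals, which cover counting error only, ran from 5.88 to 19.9 in replicate 1, 7.19 to 23.1 in replicate 2 and 5.17 to 19.8 in replicate 3. At this depth no difference in AGO7 among the libraries was detectable.

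RDR6, the polymerase that makes the double strand, had scaled values of 127.0, 170.3 and 187.5 in replicates 1, 2 and 3, a mean of 161.6 ± 31.2 (SD, n = 3). Replicate 1 was the lowest, and its Poisson interval of 106.4 to 150.4 lay below that of replicate 3, at 160.7 to 217.5. SGS3, the RNA-binding partner of RDR6, had 166.8, 234.7 and 164.9, a mean of 188.8 ± 39.8 (SD, n = 3). Here replicate 2 stood above the other libraries, which were nearly equal. The partners thus did not peak in the same library. The ratio of RDR6 to SGS3 was 0.761, 0.726 and 1.14 in replicates 1, 2 and 3, a mean of 0.875 ± 0.228 (SD, n = 3), so SGS3 was the higher in replicates 1 and 2 and RDR6 in replicate 3.

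DCL4, the dicer of the route, was the highest tasiRNA gene by mean and the most variable of the 8. It had scaled values of 356.4, 357.3 and 163.8 in replicates 1, 2 and 3, a mean of 292.5 ± 111.5 (SD, n = 3). Replicates 1 and 2 were nearly equal, and the highest library was 2.18 times replicate 3. The Poisson interval of replicate 3, at 138.8 to 192.0, lay far below that of replicate 1, at 321.3 to 394.3. Without replicate 3 the mean was 356.8.

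The AGO1 paralogues, the main carriers of microRNAs, were the highest of the 8 and the steadiest on the log2 scale. AGO1A had scaled values of 440.7, 486.1 and 466.6 in replicates 1, 2 and 3, a mean of 464.4 ± 22.7 (SD, n = 3). AGO1B had 552.6, 530.7 and 624.9, a mean of 569.4 ± 49.3 (SD, n = 3). AGO1A was below AGO1B in every library and their ranges did not overlap. The ratio of AGO1A to AGO1B was 0.820 ± 0.0868 (SD, n = 3). The paralogues resemble each other in sequence, and how reads that match both were counted is not given in the sources used here, so this ratio is uncertain.

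DCL1, which cuts microRNA precursors, had scaled values of 103.3, 114.2 and 137.9 in replicates 1, 2 and 3, a mean of 118.5 ± 17.7 (SD, n = 3). DCL3, the dicer of the DNA methylation route, had 52.1, 65.4 and 70.0, a mean of 62.5 ± 9.30 (SD, n = 3). Both had their lowest value in replicate 1 and their highest in replicate 3. Their ratio, DCL3 to DCL1, was 0.505, 0.573 and 0.508 in replicates 1, 2 and 3, a mean of 0.528 ± 0.0384 (SD, n = 3). Counting alone gives a coefficient of variation of 12.8% for DCL3 and 9.30% for DCL1. The closeness of the 3 ratios therefore does not show that the ratio is constant.

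**Figure D1:**
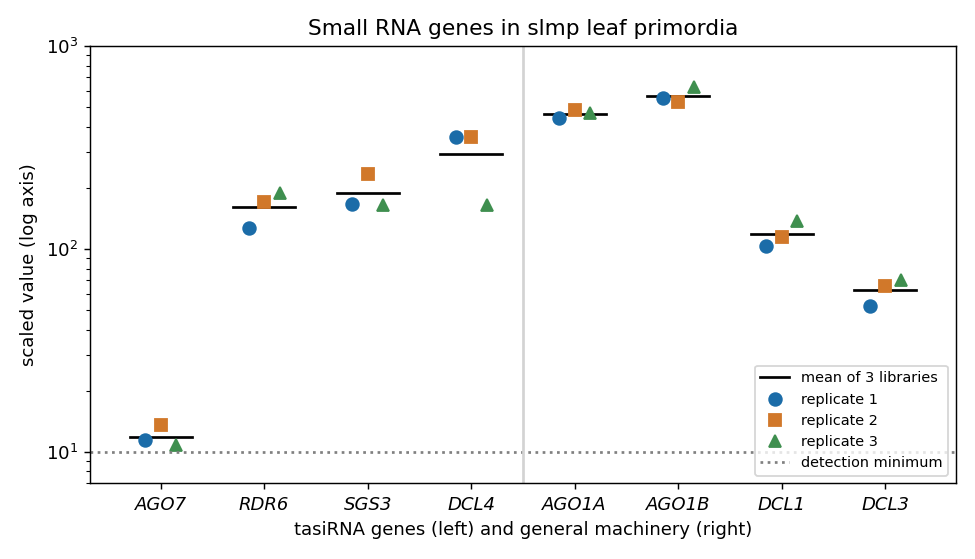
Scaled value of each gene (log axis) in replicates 1, 2 and 3, with the mean of the 3 libraries as a black bar and the detection minimum of 10 as a dotted line. AGO7 sits just above the minimum in every library, AGO1A and AGO1B lie at the top, and DCL4 in replicate 3, at 163.8, is apart from its other libraries.

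By mean, the order from high to low was AGO1B, AGO1A, DCL4, SGS3, RDR6, DCL1, DCL3 and AGO7. Of the 7 neighbouring steps in this order, 4 were between genes whose ranges did not overlap: AGO1B and AGO1A, AGO1A and DCL4, DCL1 and DCL3, and DCL3 and AGO7. The ranges overlapped between DCL4 and SGS3, between SGS3 and RDR6, and between RDR6 and DCL1, so the order within that stretch is not settled by these libraries. RDR6 was nevertheless above DCL1 in 3 of 3 libraries. Over all 28 pairs of the 8 genes, whose means ran from 11.9 to 569.4, 24 did not overlap. The same share over pairs of loci in general was not computed, so the count only describes how far apart these levels lie. No p is given for these comparisons, because an exact sign-flip test over 3 libraries cannot give a two-sided p below 0.25. DCL4 ranked at place 3 among the 8 in replicates 1 and 2 and at place 5 in replicate 3, below RDR6 and SGS3. In replicate 3 it had 152 steps against 153 for SGS3, and its Poisson interval also overlapped that of RDR6. Its place among these genes in that library is therefore not settled. Without replicate 3, 6 of the 7 neighbouring steps had ranges that did not overlap. Ranges over fewer libraries cannot be wider, so this does not settle the order.

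The tasiRNA genes summed to less than the general machinery in each library. Their summed scaled values were 661.6, 775.8 and 526.9 in replicates 1, 2 and 3, against 1149, 1196 and 1299 for the 4 general genes. The ratio of tasiRNA genes to general genes was 0.576, 0.648 and 0.405, a mean of 0.543 ± 0.125 (SD, n = 3). Replicate 3 had the lowest ratio. With DCL4 left out of the sum, a choice made after the values were seen, the ratio was 0.266, 0.350 and 0.279, and replicate 1 was the lowest. The general sum, with a mean of 1215, was mostly AGO1A and AGO1B, at means of 464.4 and 569.4. The general dicers DCL1 and DCL3, at means of 118.5 and 62.5, were below DCL4, SGS3 and RDR6, at 292.5, 188.8 and 161.6. AGO7, at 11.9, was below both general dicers. The lower tasiRNA sum therefore does not hold gene by gene.

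Among Argonautes, AGO7 was a small part of the signal. The 10 further Argonaute loci of the table came from a list recorded by locus number from general knowledge of the tomato families, and no source used here pairs these identifiers with names. Of the 11 loci recorded, 10 were in the table and 9 were detected. The median of the means was 133.8 over these 10 loci and 183.7 over the 9 detected. The highest was Solyc01g008960, at 2104, 2277 and 2824 in replicates 1, 2 and 3, which took 47.0% ± 2.33 (SD, n = 3) of the summed value of the 13 Argonaute loci. AGO1A and AGO1B together took 20.4% ± 1.10, and AGO7 took 0.236% ± 0.0429. The AGO1 paralogues together were 88.0 ± 13.0 times AGO7 (SD, n = 3), the ratio being between 75.3 and 101.3. The undetected locus, Solyc02g069280, had 5.69, 0 and 6.46 in replicates 1, 2 and 3. Solyc02g069270, next to it and named after its values were seen, had 325.1, 61.3 and 164.9, a wider spread than any of the 8 genes.

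Among dicers, DCL4 gave the largest part in every library. Of 4 other Dicer-like loci recorded, 3 were in the table and 2 were detected, with the highest, Solyc11g008540, at a mean of 69.3 ± 12.1 (SD, n = 3) and the lowest, Solyc11g008530, at 3.39 ± 1.17. Of the summed value of the 6 loci, DCL4 took 57.7%, 52.5% and 35.1% in replicates 1, 2 and 3, DCL1 took 16.7%, 16.8% and 29.6%, and DCL3 took 8.44%, 9.62% and 15.0%. The share of DCL4 was lowest in replicate 3, where the shares of DCL1 and DCL3 were highest. A fall in 1 part of a sum raises the other shares by construction. The scaled values of DCL1 and DCL3 were also highest there, at 137.9 and 70.0. The ratio of DCL4 to DCL1 was 3.45, 3.13 and 1.19 in replicates 1, 2 and 3. In replicate 3 the Poisson intervals of DCL4, at 138.8 to 192.0, and DCL1, at 115.1 to 164.0, overlapped.

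RDR6 was the highest of the RNA-dependent RNA polymerase loci measured. Of 5 others recorded, 2 were in the table and both were detected, Solyc05g007510 at a mean of 88.7 ± 24.4 (SD, n = 3) and Solyc03g114140 at 63.0 ± 12.1. RDR6 took 52.8%, 48.5% and 53.9% of the sum of these 3 loci in replicates 1, 2 and 3, a narrower range than that of DCL4 among dicers. All 3 loci had their lowest value in replicate 1. Loci that are not in the table were left out of these sums, so the shares hold only for the loci listed.

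**Figure D2:**
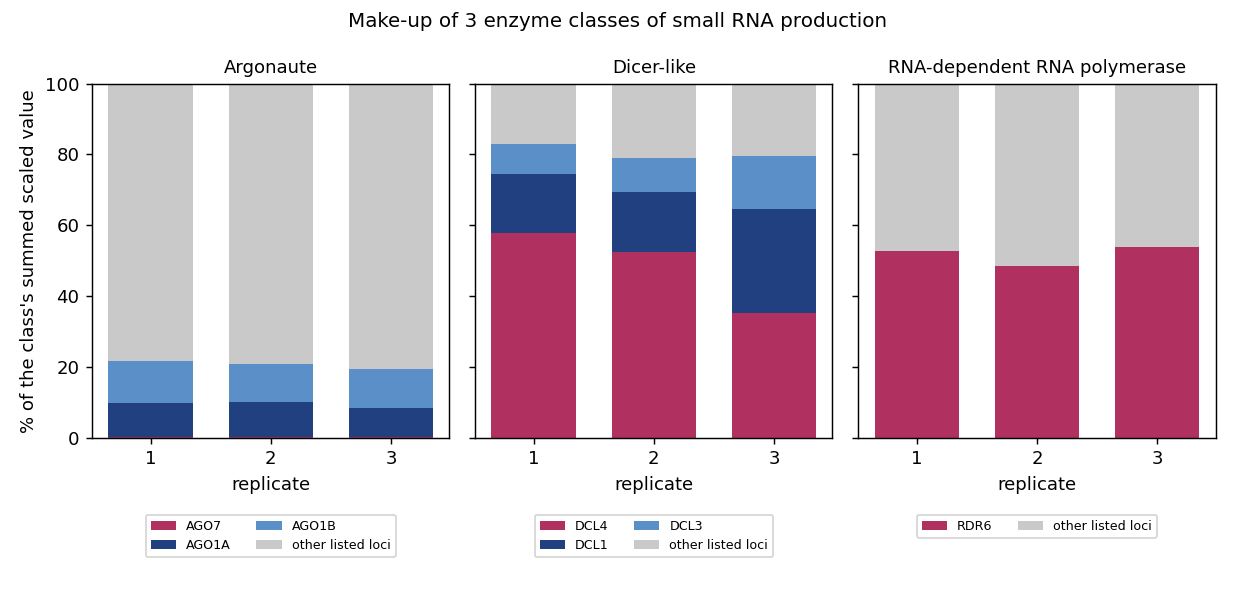
Percent of the summed scaled value in each library (replicates 1, 2 and 3) taken by the named genes and by the other listed loci, for 13 Argonaute, 6 Dicer-like and 3 RNA-dependent RNA polymerase loci. AGO7 is barely visible at 0.236% on average, and the DCL4 share is 35.1% in replicate 3.

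The 4 loci recorded as targets of tasiARFs, of the ARF2, ARF3 and ARF4 type, were all detected. Their median of means was 215.9, the highest being Solyc03g118290 at 318.8 ± 81.1 (SD, n = 3) and the lowest Solyc12g042070 at 112.7 ± 40.6. Each of the 4 was higher than AGO7 in every library, since their lowest single value was 88.1. With AGO7 at percentile 27.2 of all loci, most loci of any kind were higher than it by mean.

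The 8 genes did not move together across the libraries. Replicate 1 held the lowest value for RDR6, AGO1A, DCL1 and DCL3, or 4 of the 8, against 29.3% of detected loci that had their lowest value there. Replicate 3 held it for AGO7, SGS3 and DCL4, and replicate 2 for AGO1B. On the log2(value + 1) scale, the median deviation of the 8 from each gene's own mean was -0.12, 0.08 and 0.07 in replicates 1, 2 and 3. Over detected loci these medians were 0.00, 0.01 and 0.00. The tasiRNA genes and the general genes differed most in replicate 3, with medians of -0.15 for the 4 tasiRNA genes and 0.15 for the 4 general genes. RDR6 went the other way from its group there, at 0.23. No genes of similar pattern are named, because 3 libraries are too few for a correlation across samples.

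**Figure D3:**
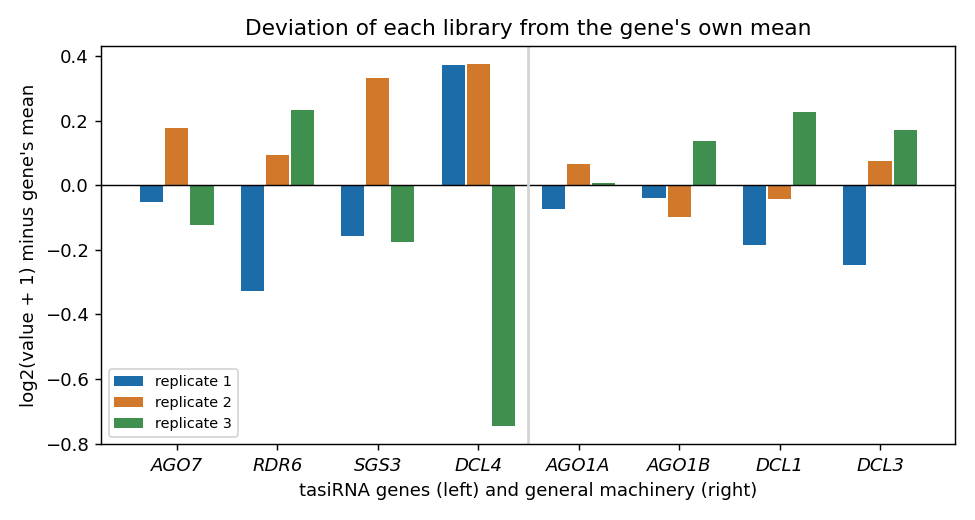
Deviation of log2(value + 1) in replicates 1, 2 and 3 from the gene's mean over the libraries, tasiRNA genes on the left and general machinery on the right. DCL4 in replicate 3 has the largest deviation plotted, at -0.75, while AGO1A deviates by -0.07, 0.07 and 0.01 in replicates 1, 2 and 3.

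The spread between libraries differed from gene to gene. As the SD of log2(value + 1), it was 0.65 for DCL4, 0.29 for both RDR6 and SGS3, 0.22 for DCL3, 0.21 for DCL1, 0.16 for AGO7, 0.12 for AGO1B and 0.07 for AGO1A. The 1000 loci nearest to DCL4 in mean level had a median SD of 0.22, and DCL4 lay at percentile 93.4 among them. RDR6 and SGS3 lay at percentiles 63.2 and 65.3 of their own nearest loci, and AGO1A at 6.7. Thus DCL4, RDR6 and SGS3 were above the median spread of loci of like level, and the other 5 genes, AGO7 among them, below it. A median splits such loci evenly, so 3 of 8 above it is no more than loci in general give. The SD was 0.0026 for DCL4 without replicate 3, 0.10 for RDR6 without replicate 1 and 0.01 for SGS3 without replicate 2. Among 3 values, leaving out the outlying value lowers the SD by construction. Genes below the median spread fell likewise, such as AGO7 to 0.05 without replicate 2 and DCL3 to 0.07 without replicate 1. AGO7 lay at percentile 8.4, where its coefficient of variation of 12.1% was below the 29.3% that counting alone gives at its level. For the other 7 the coefficient of variation was at or above the counting value, from 4.90% against 4.69% for AGO1A to 38.1% against 5.87% for DCL4.

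**Figure D4:**
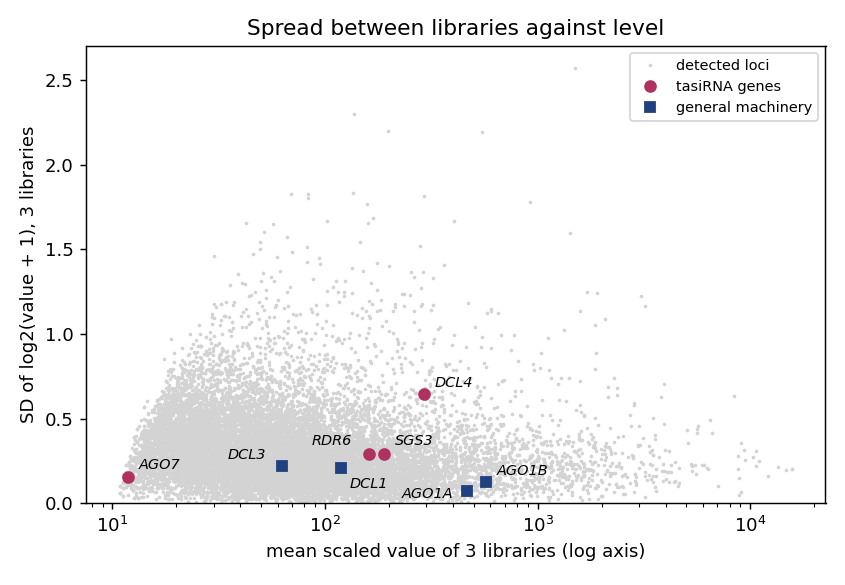
SD of log2(value + 1) over the 3 libraries against the mean scaled value (log axis) for detected loci (grey), the 4 tasiRNA genes (circles) and the 4 general genes (squares). DCL4 lies in the upper part of the cloud at its level, and AGO1A lies near its lower edge.

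The low value of DCL4 in replicate 3 was shared by the locus before it in identifier order, a comparison picked once the values were known. Replicate 3 lay more than 2-fold below both other libraries at 212 (1.56%) of the 13579 loci whose mean was at least 20, and DCL4 was the only one of the 7 genes above that mean to be so. Solyc07g005020, the preceding locus, had scaled values of 282.4, 287.7 and 90.5 in replicates 1, 2 and 3, and was among the 212. The one before that, Solyc07g005010, had 32.2, 43.6 and 16.2, also lowest in replicate 3. On the other side, Solyc07g005050 had 2460, 1915 and 2183 and was not low in replicate 3. Of 8947 neighbouring pairs in which both means were at least 20, 263 held at least 1 locus low in replicate 3 in this sense, and in 10 both were. The ratio of Solyc07g005020 to DCL4 was 0.793, 0.805 and 0.553 in replicates 1, 2 and 3, so relative to DCL4 the neighbour was lowest in replicate 3. The strand setting of the counting is not given in the sources used here, and the part that reads shared between these loci play in the likeness was not tested.

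**Figure D5:**
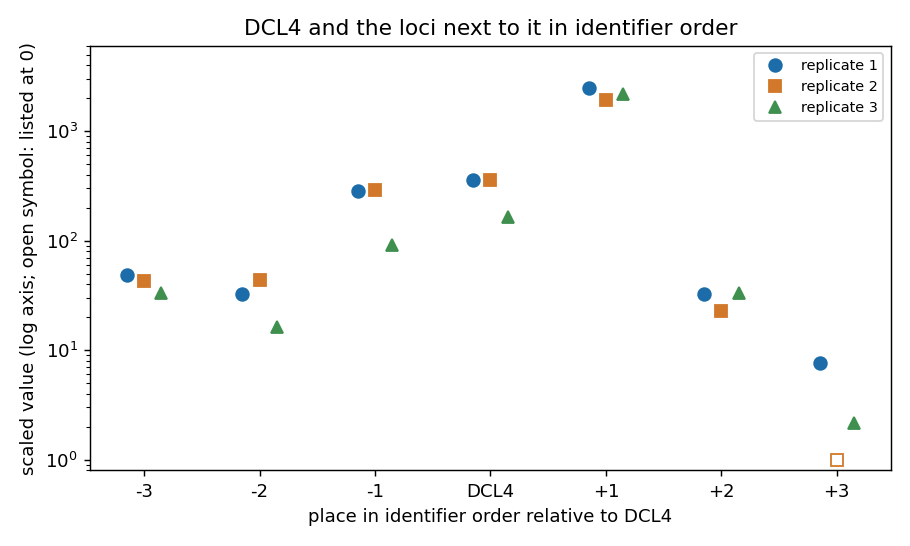
Scaled values (log axis) in replicates 1, 2 and 3 of DCL4 and of the 3 loci on each side of it in identifier order. DCL4, at 163.8, and the locus just before it, at 90.5, are both low in replicate 3, and the locus just after it, at 2183, is not.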

How the data were processed

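The deposited table gives, per the file headers, 1 signal value per locus and library. The tools named are Bowtie2, HTSeq and DESeq2, per the submitters' processing notes. Their versions, the build, the annotation and the strand setting were not given in the sources used here. Each deposited signal value was a whole multiple of its library's step (0.948, 1.04 and 1.08 in replicates 1, 2 and 3, within 0.001 of a step). No value of 1 step occurred, so no count model was fitted. The 3 summary rows of the counting program (21.2% to 22.7% of the scaled total without a locus, 21.4% to 25.6% of low alignment quality, 2.43% to 2.72% ambiguous) were left out of totals. The level of 3 steps was 2.84, 3.12 and 3.23. Reads carry no stated molecular identifiers, so intervals cover counting error only.

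The names AGO7, RDR6, SGS3 and DCL4 came paired with their locus identifiers; AGO1A, AGO1B, DCL1 and DCL3 came as names and loci in the same order and were paired by that order. RefSeq's table (assembly SLM_r2.1) holds 7 of the 8 names, each on the chromosome that the identifier gives; it holds no row named RDR6. All 8 genes, and of the lists only the highest, lowest and undetected loci, were to be named. Genes and lists were chosen with earlier results of these data known. Detection was 10 or more in each library; the log scale used a pseudocount of 1. With 1 group there was no test between groups. The step search was tested on simulated data with known steps. That 1 step is 1 read was not established for these files, since values of 1 step are lacking, and the Poisson intervals and counting variation rest on it. Alternatives were other scalings, pseudocounts, detection minimums and leaving out each library. Python 3.11.15, numpy 2.4.6, pandas 2.3.3, SciPy 1.17.1 and matplotlib 3.10.9 were used.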

Additional observations from a re-analysis of the deposited data

How the results depend on the processing

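Results were recomputed 182 times, each with 1 setting changed, and 168 values stayed within the spread between libraries, or within 1.5 times for counts and spreads. Leaving out 1 of 3 libraries cannot move their mean by more than their SD. For the levels of single genes, the ratios and the class shares, that outcome was therefore fixed in advance and shows no stability. Of the 14 that moved, 8 were the spreads of single genes with the gene's outlying library omitted, which lowers an SD of 3 values by construction. The spread of DCL4 was 0.0026 without replicate 3. The median spread of the 8 genes was 0.21, and 0.13 to 0.21 with each replicate left out. The median percentile of the 8 genes was 87.0, and 81.1 among detected loci alone, where low loci are left out by construction. The median of the other Argonaute loci was 133.8, 183.7 over detected loci alone, and 95.2 to 140.9 with each replicate left out. The 212 loci low in replicate 3 became 46 at a mean of 100 or more and 923 at a fold of 1.5, settings chosen after seeing the data that test fewer loci or admit more. With a minimum of 20, 7 of the 8 genes were detected, AGO7 being the exception. Neighbours in the order that did not overlap numbered 4 to 6 of 7 without each replicate, where ranges over fewer libraries cannot be wider. They numbered 6 by exact Poisson intervals of summed steps, which cover counting error only. No paired analysis was possible because there is no further group whose libraries could be paired with these 3 by replicate number; genes were compared within each library. Depth limits AGO7 most, with 10 to 13 steps per library.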
